A study of Homo sapiens with 12 samples.

Results

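TP63 was knocked down in FaDU, an established line of squamous carcinoma of the hypopharynx. The response was the difference between 3 arrays of cells given an shRNA against TP63 (shTP63) and 3 of cells given a control shRNA (shControl). The 6 arrays were chosen by their labelled cell line and treatment, and they are all the FaDU arrays among the 12 of the study. The other 6 arrays held the same treatments in JHU-029, another head and neck squamous carcinoma line, and served here to estimate the spread between arrays and to test whether a change differed between the lines. Both FaDU groups had received lentivirus, and total RNA of the whole culture was taken 72 hours after knockdown and read on single-colour Affymetrix gene arrays. The sources used here give neither the number of hairpins against TP63 nor the basal medium of FaDU. Whether the replicates were grown as separate cultures is not said in the labels, and every p-value measures only how far samples of this kind varied, which may be technical. Control replicates 1 and 2 carry the extra title word "new", whose meaning is not given. The study asked how p63 and ACTL6A, a subunit of the SWI/SNF chromatin remodelling complex, bear on Hippo and YAP signalling in squamous carcinoma.

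p63, the product of TP63, is a transcription factor related to p53 that maintains the basal layer of stratified epithelia. Its shorter form is abundant in most squamous carcinomas, where it drives basal keratins, adhesion to the basement membrane and desmosomes, and growth factor signalling. Basal cells that lose p63 are known to give up this adhesive programme, and simple or secretory epithelia such as airway and gland lining express little of it.

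The processed values of the 6 arrays were alike. Medians on the linear scale ran from 91.9 to 94.6. Log2 intensities over all 32321 probe sets correlated at 0.9933 to 0.9942 within a group and at 0.9892 to 0.9907 between the groups. These figures cannot show array quality, because robust multi-array averaging usually evens out the arrays. Correlations over all probe sets also largely reflect differences between probe sets. Quality before processing was not tested. The first principal component held 60.3% of the variance and separated the groups, and the next held 12.2%. The next crossed the groups: control array 2 and knockdown array 1 lay at -12.85 and -10.06, the other FaDU arrays between 4.30 and 7.16. The median SD of a gene over 3 arrays was 0.0963 in shControl and 0.0910 in shTP63 on the log2 scale. The tests pool the spread of all 12 arrays. The median SD was lower in JHU-029, at 0.0640 in shControl and 0.0788 in shTP63. None of the 10 squamous epithelial identity markers measured, among them KRT5, DSG3 and EPCAM, lay below the median gene in every FaDU array. Of the 10, 8 fell after knockdown. Markers of other cell types were mostly dim: 11 of 13 fibroblast, 10 of 13 immune and 9 of 11 endothelial markers lay below the median in every array. Their linear intensities were summed, and the log2 of the sum differed between the groups. For fibroblasts it went from a range of 10.55 to 10.62 in the controls to 10.71 to 10.75 after knockdown. For immune cells it went from 11.22 to 11.24 up to 11.27 to 11.42, and for endothelium from 9.88 to 9.95 up to 10.41 to 10.49. The endothelial sum moved with CDH5, a cadherin of endothelial junctions, which rose by 1.00 (SE 0.07, adjusted p = 1.25e-06), while the endothelial markers VWF, PECAM1, KDR and TEK did not pass. The part of these markers in the results was not tested. TP63 itself, the target of the shRNA, is not analysed here.

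Of 18404 genes tested with limma, 4900 (26.6%) passed an adjusted p of 0.05, and 2291 of them (12.4%) rose while 2609 (14.2%) fell. Changes are differences of mean log2 intensity, shTP63 minus shControl, with the standard error (SE) of the fit and 3 arrays per group throughout. A change of 1 is 2-fold. Most calls were small: 1052 genes changed by under 0.25, 2653 by 0.25 to 0.5, 1039 by 0.5 to 1, and 156 (0.848%) by 2-fold or more, 67 up (0.364%) and 89 down (0.484%). Falls outnumbered rises among changes of 0.5 to 1, at 637 against 402. The share called rose with probe set brightness, from 6.72% in the dimmest of 4 equal classes of genes to 43.9% in the brightest. In 6647 genes (36.1%) the 3 arrays of a group did not overlap those of the other. The median change over all genes was 0.02. In gene lists below, the counts called are to be read against 12.4% higher and 14.2% lower. Fewer cells of a type and less RNA per cell cannot be told apart in such bulk samples. Changes are read within a probe set. Setting a level against the median gene, or summing levels over markers, compares different probe sets and is only a rough guide.

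**Figure D1:**
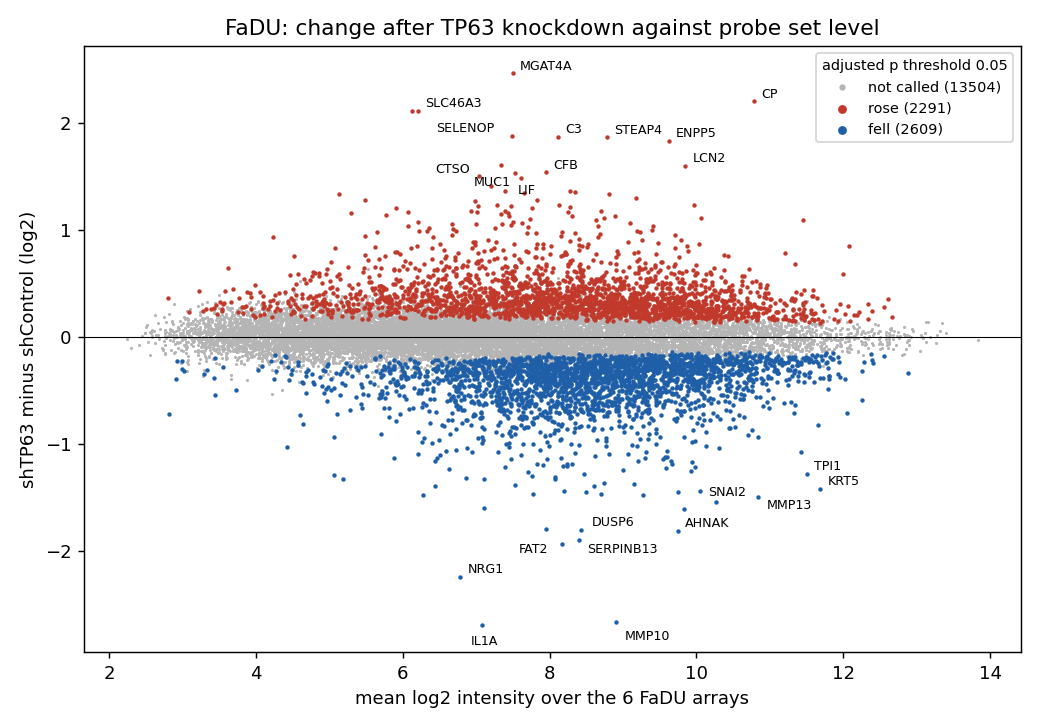
Change in FaDU (shTP63 minus shControl, log2) of 18404 genes against their mean log2 intensity over the 6 arrays, with 2291 risen genes in red, 2609 fallen genes in blue and the rest in grey. Calls span the whole range of intensity, MGAT4A and CP lead the rises, and IL1A, MMP10 and NRG1 lead the falls.

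Much of the basal adhesion programme fell. None of 15 measured hemidesmosome, integrin and laminin-332 genes rose and 9 fell, with a median change of -0.26. Integrin alpha 6 and beta 4 together form the receptor by which basal cells hold the basement membrane through the hemidesmosome. ITGA6 (probe set 8046380) read 9.78, 9.67 and 9.59 in the control arrays and 8.68, 9.0 and 8.88 in the knockdown arrays, a change of -0.83 (SE 0.08, adjusted p = 7.22e-06). ITGB4 read 10.84, 10.94 and 10.86 against 10.27, 10.35 and 10.28, a change of -0.58 (SE 0.05, adjusted p = 6.33e-06). All knockdown arrays were below all control arrays for both subunits. FERMT1, the epithelial kindlin that activates integrins, fell by 0.89 (adjusted p = 1.41e-07), and ITGA3 and ITGA5, alpha chains of a laminin and a fibronectin receptor, fell by 0.50 and 0.48. The laminin chain gene LAMB3 changed by -0.13, and DST and PLEC, which tie hemidesmosomes to keratin filaments, by -0.06 and 0.05, none past the threshold. With both control arrays titled "new" left out, 5 of the 15 still fell and 1 rose.

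Desmosomes, the junctions that couple keratin filaments of neighbouring cells, changed in both directions. The cadherins DSC3 and DSG3 and the plaque protein PKP1 belong to stratified epithelium, and they fell, DSC3 by 0.93 (SE 0.08, adjusted p = 4.88e-06), DSG3 by 0.82 and PKP1 by 0.64. DSP, the desmoplakin common to all desmosomes, fell by 0.39, and PKP4, a plakophilin relative found at several kinds of junction, fell by 0.86. DSC3 read 10.38, 10.32 and 10.18 in the controls and 9.23, 9.49 and 9.37 after knockdown. Of the isoforms also found in simple epithelia, DSC2 rose by 0.26 (adjusted p = 0.00454), while DSG2 and PKP2 changed by 0.14 and 0.16 and passed only narrowly (adjusted p = 0.046 and 0.0365). The DSG2 call was lost without control array 2, control array 3, knockdown array 1, knockdown array 2 or knockdown array 3 (adjusted p of up to 0.122), and that of PKP2 without control array 1, control array 2, knockdown array 2 or knockdown array 3 (up to 0.114). JUP, plakoglobin, likewise common to all desmosomes, changed by -0.05, and E-cadherin, CDH1, by -0.04. In all, 6 of 13 desmosome genes fell and 3 rose.

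Keratins changed in both directions. Of 7 keratins listed as basal and stress keratins, with KRT13 of mucosa among them, 4 fell and none rose (median -0.43). Of 6 listed as keratins of simple epithelia 3 rose and none fell (median 0.27), and these were KRT8, KRT18 and KRT80, the last of which is not a classical keratin of simple epithelium. KRT15, a keratin of basal cells, read 8.67, 8.64 and 8.85 in the controls and 7.60, 7.40 and 7.26 after knockdown, a change of -1.30 (SE 0.11, adjusted p = 2.66e-06), close in size to that of KRT5 at -1.41. KRT13, the keratin of non-keratinising mucosa, fell by 0.52, whereas KRT16, a stress keratin, changed by -0.14 and did not pass. KRT18, the partner of KRT8 in simple epithelium, rose by 0.31 (SE 0.05, adjusted p = 0.000446), from 12.10, 12.23 and 12.20 to 12.47, 12.50 and 12.49. KRT8 rose by 0.36 and KRT80 by 0.35. These rises were under 1.3-fold but every knockdown array lay above every control. Without the controls titled "new", 1 of the 6 simple keratins still passed, and KRT8, KRT80 and KRT13 did not (adjusted p = 0.0767, 0.125 and 0.0855). Of 34 cornified envelope and differentiation genes 6 rose and none fell, at a median of 0.05. Among them were PPL, which encodes periplakin and rose by 0.61, and GRHL1 and PRDM1, transcription factors of late differentiation, which rose by 0.62 and 0.65. Without knockdown array 1, 2 members of that list fell.

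Of 41 genes tied to p63 and the basal state 30 fell and 2 rose (median -0.55, against 0.02 over all genes). Other lists share members with this one, as the ERBB ligands share NRG1, so some falls count in both. This list was drawn up from genes known to follow p63, so its direction was built into the choice. BNC1, a zinc finger factor of basal keratinocytes, read 8.62, 8.38 and 8.58 in the controls and 7.26, 7.45 and 7.46 after knockdown, a change of -1.14 (SE 0.07, adjusted p = 4.11e-07). NECTIN1, an adhesion protein that binds other nectins, fell by 1.38 (SE 0.06). ADAMTS1, a secreted protease that cleaves proteoglycans, fell by 1.48. TFAP2C, a transcription factor that acts beside p63 in early epidermis, went the other way and rose by 0.86 (SE 0.06, adjusted p = 9.64e-07), from 8.08, 7.91 and 8.05 to 8.87, 8.96 and 8.79. The remaining rise, RIPK4 at 0.20, was lost without control array 2, control array 3, knockdown array 1 or knockdown array 2, with adjusted p of up to 0.104.

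**Figure D2:**
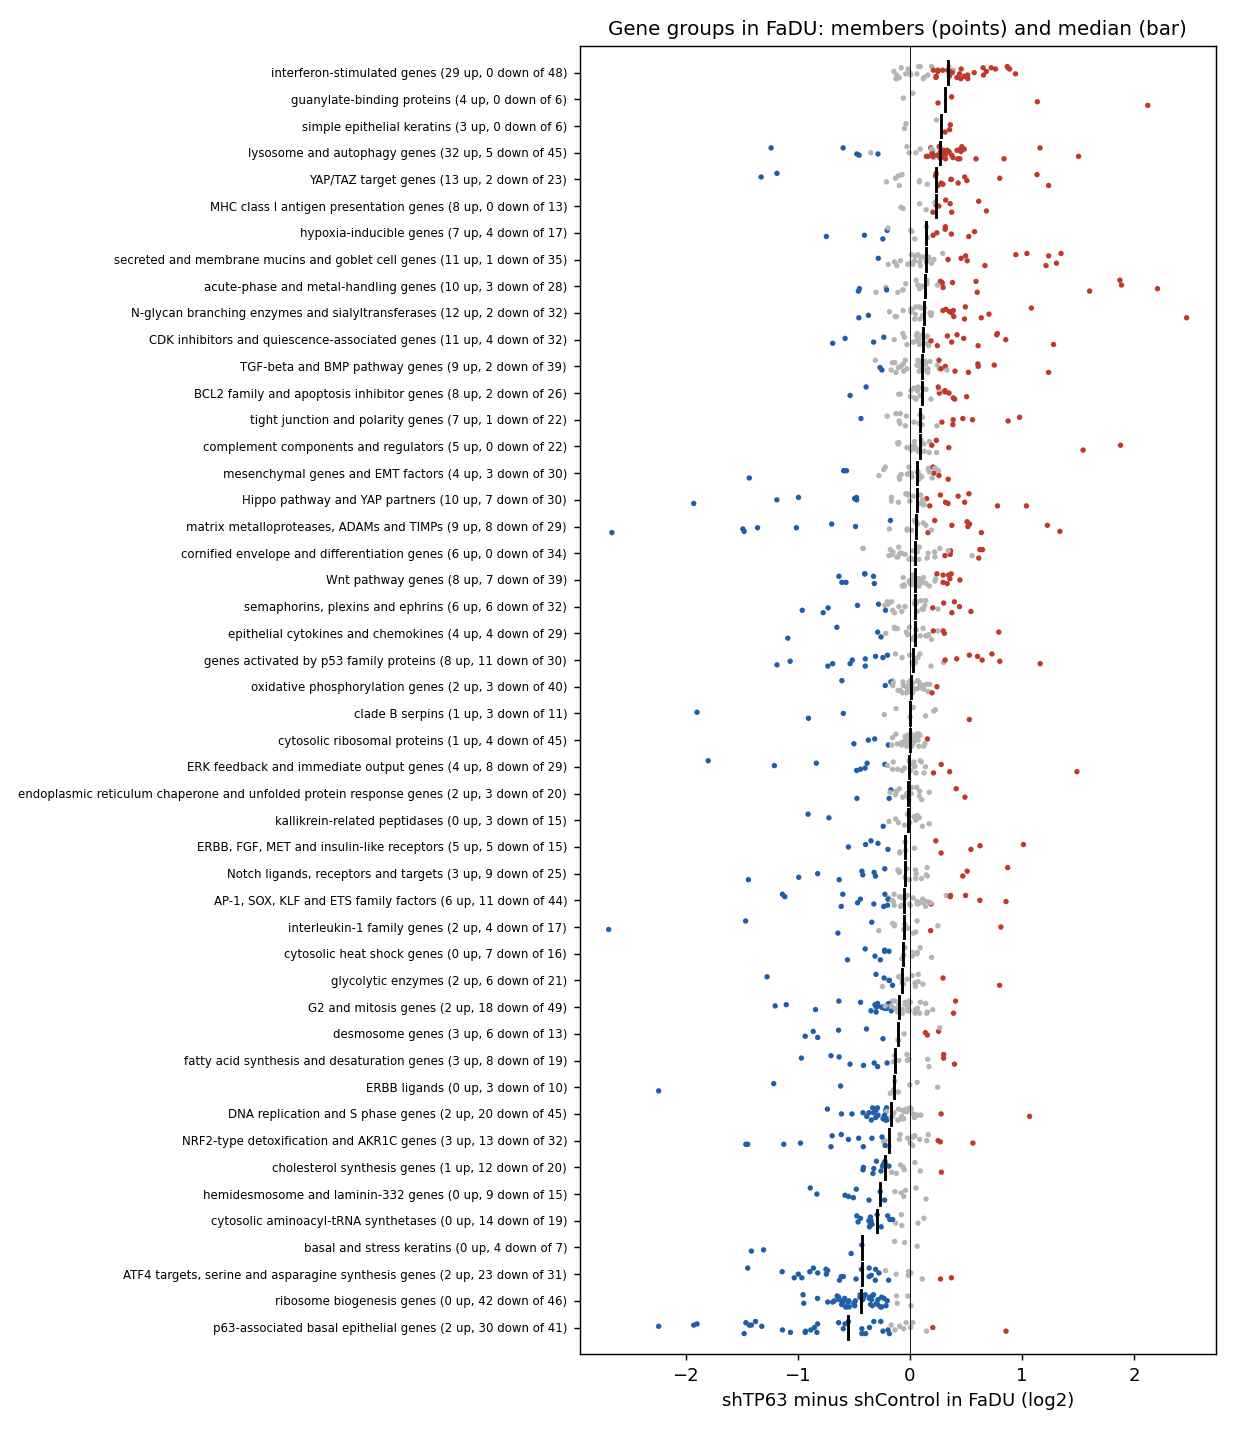
Change in FaDU (log2) of every measured member of 48 gene groups, with risen members in red, fallen members in blue, the rest in grey and the median as a bar. Interferon-stimulated, lysosomal and YAP/TAZ target genes lie to the right, and p63-associated, ribosome biogenesis, ATF4 and tRNA synthetase genes to the left.

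The ERBB ligands NRG1, TGFA and HBEGF fell while the receptors changed in both directions. Of 10 ligands 3 fell and none rose, with a median of -0.14. NRG1, a ligand of ERBB3 and ERBB4, read 7.95, 7.72 and 8.04 in the controls and 5.93, 5.32 and 5.74 after knockdown, a change of -2.24 (SE 0.13, adjusted p = 1.57e-07). TGFA, a ligand of EGFR, read 8.01, 8.06 and 7.92 against 6.92, 6.83 and 6.60, a change of -1.21 (SE 0.08, adjusted p = 4.63e-07). HBEGF, another EGFR ligand, fell by 0.62 (adjusted p = 0.00046). The groups did not overlap for any of these genes. EREG, the ligand epiregulin, changed by -0.14 and did not pass (adjusted p = 0.242).

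Of 15 receptor genes 5 rose and 5 fell. ERBB3, the receptor of neuregulins, rose by 0.63 (SE 0.05, adjusted p = 2.19e-06), from 8.88, 8.89 and 8.93 to 9.54, 9.56 and 9.49. INSR, the insulin receptor, rose by 1.01 (SE 0.08, adjusted p = 2.02e-06), from 6.13, 6.29 and 6.11 to 7.32, 7.15 and 7.09. EPHA2, a receptor of ephrins, rose by 0.54 and ERBB2, the partner of ERBB3, by 0.23. Receptors that fell included FGFR2, which binds keratinocyte growth factor, by 0.55, EGFR by 0.39 and MST1R, the receptor of macrophage-stimulating protein, by 0.35. IGF1R changed by -0.09 and did not pass. Without the controls titled "new", 3 receptors rose and 2 fell, and ERBB2 and MST1R did not pass (adjusted p = 0.0706 and 0.0546).

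Among 29 genes that follow ERK activity 8 fell and 4 rose. The ERK phosphatases DUSP6 and DUSP7 fell. DUSP6 read 9.33, 9.29 and 9.35 in the controls and 7.65, 7.37 and 7.56 after knockdown, a change of -1.80 (SE 0.07, adjusted p = 1.4e-08). DUSP7 read 10.56, 10.59 and 10.62 against 9.41, 9.37 and 9.36, a change of -1.21 (SE 0.05, adjusted p = 1.44e-08). ETV4, an ETS factor induced by ERK, fell by 0.83, and the immediate early gene EGR1 by 0.48. LIF, a cytokine of the interleukin-6 family, stood apart within this list and rose by 1.49 (SE 0.11, adjusted p = 9.7e-07), from 6.90, 6.71 and 6.99 to 8.24, 8.34 and 8.48. The related phosphatase DUSP4 rose by 0.28, a call lost without control array 3 (adjusted p = 0.0574). Without control array 3, or without both controls titled "new", the count of rises was 2.

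The cytokines IL1A, IL1B and IL18 fell. IL1A, an alarm cytokine stored in keratinocytes, read 8.52, 8.26 and 8.46 in the controls and 5.40, 5.86 and 5.92 after knockdown, a change of -2.69 (SE 0.12, adjusted p = 1.95e-08), a 6.43-fold fall. IL1B, its secreted relative, read 8.52, 8.34 and 8.66 against 6.90, 7.12 and 7.10, a change of -1.46 (SE 0.08, adjusted p = 1.92e-07). IL18 fell by 0.64 and IL1RAP, the shared co-receptor, by 0.34. IL1RL1, the receptor of interleukin-33, rose by 0.81 (SE 0.12, adjusted p = 0.000327), from 6.99, 7.28 and 7.55 to 8.14, 8.23 and 7.88. No array of these genes crossed into the other group. Of 17 family members 4 fell and 2 rose. The remaining rise, SIGIRR at 0.18, was lost without control array 2, control array 3, knockdown array 2 or knockdown array 3, with adjusted p of up to 0.133. The interleukin-36 genes and the receptor IL1R1 did not pass.

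Of 29 other epithelial cytokines and chemokines 4 rose and 4 fell, 13.8% each way. These shares are close to the 12.4% and 14.2% over all genes. IL24, a cytokine of the interleukin-10 family, read 6.55, 6.74 and 6.96 in the controls and 5.53, 5.72 and 5.73 after knockdown, a change of -1.09 (SE 0.13, adjusted p = 6.34e-05). TNFAIP3, which restrains NF-kB, fell by 0.65, and CSF1, a macrophage growth factor, by 0.29. TNFSF10, the death ligand TRAIL, rose by 0.79 (SE 0.08, adjusted p = 1.27e-05), from 10.74, 10.85 and 10.81 to 11.64, 11.63 and 11.52. IL15 rose by 0.31. CXCL1, a neutrophil chemokine, changed by -0.22 and did not pass.

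Part of the complement and acute-phase genes rose, led by secreted proteins best known from liver and mucosa. Of 22 complement genes 5 rose and none fell. C3, the central complement protein, read 7.17, 7.30 and 7.08 in the controls and 9.13, 9.16 and 8.88 after knockdown, a change of 1.88 (SE 0.09, adjusted p = 3.97e-08). CFB, complement factor B, read 7.11, 7.25 and 7.16 against 8.71, 8.72 and 8.71, a change of 1.54 (SE 0.09), and other probe sets of CFB changed by 0.79 and 1.41. The other complement genes moved less: CD55, which protects cells from complement, rose by 0.24. Without knockdown array 2, 3 of the 22 rose, and likewise without both controls titled "new".

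Of 28 acute-phase and metal-handling genes 10 rose and 3 fell. CP, the copper-carrying ferroxidase ceruloplasmin, read 9.61, 9.98 and 9.46 in the controls and 12.10, 11.85 and 11.72 after knockdown, a change of 2.21 (SE 0.16, adjusted p = 1.29e-06). LCN2, the iron-sequestering lipocalin, read 8.88, 9.18 and 9.07 against 10.64, 10.62 and 10.68, a change of 1.6 (SE 0.07, adjusted p = 3.04e-08). STEAP4, a metalloreductase, rose by 1.87 and SELENOP, the plasma selenium carrier, by 1.89. Transferrin receptor, TFRC, fell by 0.21, the reductase STEAP3 by 0.45 and the zinc and iron importer SLC39A14 by 0.46. The ferritin chain gene FTL changed by 0.07 and did not pass. The TFRC call was lost with the FaDU arrays fitted alone (adjusted p = 0.0609) and without the controls titled "new" (adjusted p = 0.0955). FTL aside, the genes named in this paragraph had no overlap between the groups.

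**Figure D3:**
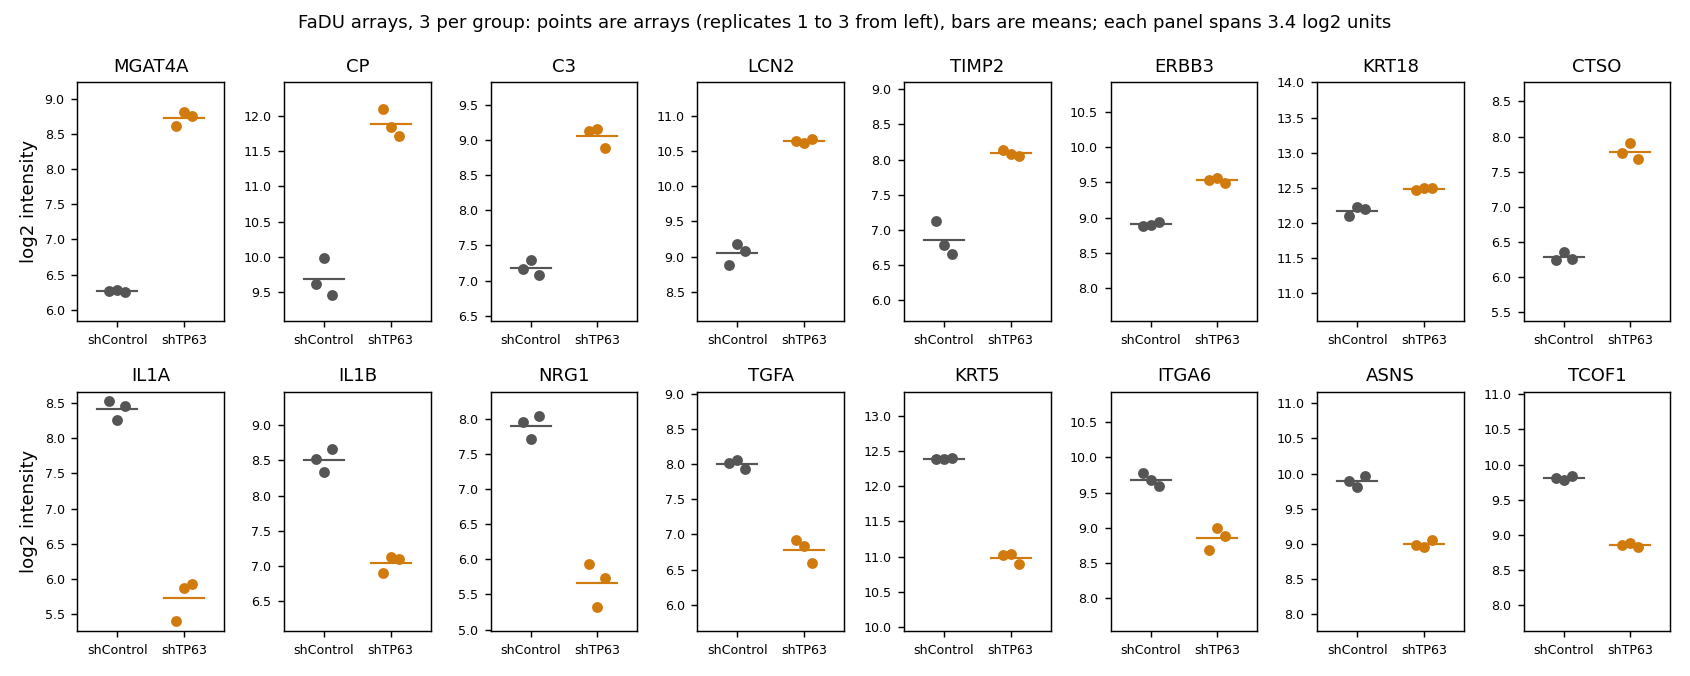
Log2 intensity of 16 genes in each FaDU array, 3 shControl (grey) and 3 shTP63 (orange), with group means as bars and axes of equal span. The upper row rose, from 2.47 for MGAT4A to 0.31 for KRT18, and the lower row fell, by 2.69 for IL1A to 0.83 for ITGA6, with no overlap between groups in any panel.

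Interferon-stimulated genes rose as a broad, moderate shift. Of 48 measured 29 rose and none fell, with a median of 0.34 and members between -0.14 and 0.94. Median levels against the control mean were 0.29, 0.32 and 0.29 in the 3 knockdown arrays and between -0.04 and 0.04 in the controls. The leading genes are antiviral effectors. IFI27, a mitochondrial interferon-induced protein, read 8.31, 8.11 and 8.15 in the controls and 9.26, 9.03 and 9.11 after knockdown, a change of 0.94 (SE 0.08, adjusted p = 3.92e-06). OAS2, which senses double-stranded RNA, read 6.64, 6.34 and 6.62 against 7.43, 7.48 and 7.36, a change of 0.89 (SE 0.09, adjusted p = 2.14e-05). MX1, a dynamin-like GTPase, rose by 0.88 and XAF1, a pro-apoptotic interferon target, by 0.87. IFITM3, which blocks viral entry, changed by -0.04 and did not pass. Without the controls titled "new", which leaves 1 FaDU control, 16 of the 48 rose at an almost equal median of 0.33.

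Interferon acts on its targets through a promoter element, and the promoters of 14228 of the genes tested could be read for it (RefSeq, GRCh38.p14, 250 bases before to 50 after the start). A pair of GAAA motifs parted by NN, any 2 bases, on either strand, occurred in 433 of these promoters (3.04%) and in 26 of the 40 promoters of interferon-stimulated genes. Within the list 14 of 16 promoters of genes that did not pass held the pair, and 12 of 24 of those that rose. Stretches of 60 bases are shown for 3 risen genes, IFI27, IFIT3 and PARP14, and 1 that did not pass, ISG15, with the matched letters in capitals, to show that the element stands in both. IFIT3, PARP14 and ISG15 were chosen after their values were seen. They changed by 0.65 (adjusted p = 0.00012), 0.34 (adjusted p = 0.0157) and 0.08 (adjusted p = 0.537), and PARP14 was lost without control array 3 (adjusted p = 0.054).
IFI27 (chr14:94110603-94110662, plus strand): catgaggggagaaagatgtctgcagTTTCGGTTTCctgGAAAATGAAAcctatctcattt
IFIT3 (chr10:89327816-89327875, plus strand): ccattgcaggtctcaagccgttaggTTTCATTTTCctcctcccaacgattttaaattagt
PARP14 (chr3:122680779-122680838, plus strand): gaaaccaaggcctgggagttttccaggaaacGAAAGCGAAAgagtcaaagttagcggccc
ISG15 (chr1:1013359-1013418, plus strand): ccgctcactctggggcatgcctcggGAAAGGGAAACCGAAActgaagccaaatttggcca
The element occurs 2 times before the start in IFI27, IFIT3 and ISG15, with the other match of IFIT3 outside the stretch shown, and in IFI27 and IFIT3 a run in capitals reads as the element on the opposite strand. ISG15 read 8.37, 8.44 and 8.40 in the controls and 8.47, 8.35 and 8.62 after knockdown, with overlapping groups. A match is a description of the letters only.

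Genes of related antiviral and antigen-presenting pathways also rose. GBP2, a guanylate-binding GTPase induced by interferon gamma, read 5.11, 4.94 and 5.16 in the controls and 7.19, 7.11 and 7.26 after knockdown, a change of 2.12 (SE 0.09, adjusted p = 1.65e-08). GBP4 read 6.70, 6.87 and 7.05 against 7.99, 8.04 and 7.99, a change of 1.14 (SE 0.10, adjusted p = 5.01e-06). The family is made of close paralogs, so a probe may read more than 1 member, and another probe set of GBP2 rose by 1.28. Of 6 guanylate-binding genes 4 rose, and 2 without control array 3. Of 13 genes of antigen presentation by MHC class I 8 rose and none fell. These included PSMB9 and PSMB10, catalytic subunits of the immunoproteasome, at 0.68 and 0.61, and the peptide-loading chaperone TAPBP at 0.37. The invariant chain B2M rose by 0.20 and the peptide transporter TAP2 changed by -0.08, which did not pass. Without both controls titled "new" the count was 5 and B2M did not pass (adjusted p = 0.0711).

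Secreted proteases changed in both directions within 1 gene cluster. MMP10, MMP1, MMP3, MMP12 and MMP13, neighbours on chromosome 11, all fell, while MMP7 of the same cluster rose. MMP10, stromelysin-2, read 10.20, 10.20 and 10.28 in the controls and 7.77, 7.51 and 7.44 after knockdown, a change of -2.66 (SE 0.08, adjusted p = 4.2e-09), a 6.30-fold fall. MMP13, a collagenase, read 11.55, 11.63 and 11.57 against 10.06, 10.18 and 10.04, a change of -1.49 (SE 0.06). MMP7, the matrilysin of glandular epithelia, read 8.19, 8.15 and 8.10 against 9.54, 9.51 and 9.40, a change of 1.34 (SE 0.12, adjusted p = 4.32e-06). The 3 genes between MMP7 and MMP10 in the order of genes tested, MMP20, MMP27 and MMP8, did not pass. With the neighbouring genes DCUN1D5 and DYNC2H1, the 5 fallen protease genes made an unbroken run of 7 fallen genes with a median of -0.70. The MMP3 call was lost without control array 3 or knockdown array 2 (adjusted p of up to 0.0545), and that of DCUN1D5 without control array 1, control array 3 or knockdown array 1 (up to 0.0756). These loci were looked up after the values were seen.

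Inhibitors and other proteases changed in both directions. TIMP2, a broad inhibitor of metalloproteases, read 7.13, 6.79 and 6.66 in the controls and 8.13, 8.07 and 8.05 after knockdown, a change of 1.23 (SE 0.10, adjusted p = 2.34e-06). TIMP1 changed by 0.04 and did not pass. PLAU, the urokinase protease, rose by 0.64 and ADAM12, a membrane protease, by 0.53. Over the 29 metalloproteases, ADAMs and inhibitors, 9 rose and 8 fell. Among 15 kallikreins, serine proteases of shedding epithelium encoded in tandem, 3 fell and none rose: KLK9 by 0.91, KLK10 by 0.72 and KLK6 by 0.24, the last not past the threshold without the controls titled "new" (adjusted p = 0.171). Of 11 clade B serpins, intracellular protease inhibitors, SERPINB13, SERPINB7 and SERPINB5 fell by 1.90, 0.90 and 0.59, and SERPINB1 rose by 0.53 (SE 0.08, adjusted p = 0.000205). SERPINB13, SERPINB7 and SERPINB5 lie together on chromosome 18 with 6 measured relatives that did not pass, whereas SERPINB1 lies on chromosome 6. The count of risen serpins was 2 without control array 1, knockdown array 1 or knockdown array 2, and the genes SERPINB3 and SERPINB4, which are near copies, changed by 0.00 and -0.12.

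Another run of neighbours that fell held part of the metallothionein genes, of small zinc- and copper-binding proteins, on chromosome 16. Its members were MT1DP, MT1B, MT1F, MT1G, MT1H, MT1IP, MT1X and NUP93. Counted with the adjacent nucleoporin gene NUP93, 8 successive tested genes fell, at a median of -0.34, though the call of NUP93 was lost without knockdown array 1 (adjusted p = 0.0521). MT1F read 10.12, 10.23 and 10.57 in the controls and 9.68, 9.60 and 9.65 after knockdown, a change of -0.66 (SE 0.09, adjusted p = 0.000161). MT1X fell by 0.53, MT1H by 0.51 and MT2A, which is not part of the run, by 0.33. These genes are near-identical, so probes may read several of them, and their agreement is not that of independent genes. They were named after their values were seen.

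Mucosal and secretory genes rose in part. Of 35 mucin and goblet cell genes 11 rose and 1 fell. MUC1, a membrane mucin of many epithelia, read 6.94, 6.99 and 7.0 in the controls and 8.62, 8.19 and 8.16 after knockdown, a change of 1.35 (SE 0.10, adjusted p = 1.78e-06). SLPI, the secreted inhibitor of leukocyte protease, read 8.52, 8.52 and 8.54 against 9.92, 9.88 and 9.69, a change of 1.31 (SE 0.10). AGR2, a disulfide isomerase needed for mucin folding, rose by 1.21, and MUC20 by 1.24. The knockdown arrays of all 4 genes lay above the controls. The single fall, SCGB1A1 at -0.28, was lost without control array 1, control array 2, knockdown array 1, knockdown array 2 or knockdown array 3, with adjusted p of up to 0.161.

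Genes of tight junctions and of glycan synthesis also changed. CGN, the tight junction adaptor cingulin, read 7.28, 7.42 and 7.26 in the controls and 8.29, 8.29 and 8.31 after knockdown, a change of 0.98 (SE 0.06, adjusted p = 2.04e-07). TJP3, a scaffold of the same junction, rose by 0.88, and the polarity protein PARD6B by 0.56. MARVELD2, the tricellulin found where cell corners meet, fell by 0.44 (SE 0.05, adjusted p = 7.01e-05). Of 22 such genes 7 rose and 1 fell. MGAT4A, which adds a branch to N-glycans, had the largest rise of any gene tested and read 6.26, 6.27 and 6.25 in the controls and 8.61, 8.82 and 8.76 after knockdown, a change of 2.47 (SE 0.10, adjusted p = 1.44e-08). Of 32 glycan-branching and sialyl-transferring enzymes 12 rose and 2 fell. The ganglioside enzyme ST3GAL5 rose by 1.08 and the core fucosyltransferase FUT8 by 0.64, while ST6GAL1 fell by 0.46 and ST3GAL1 by 0.37.

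Ribosome biogenesis had the highest share of fallen members among the 52 lists. Of 46 genes that make and assemble ribosomal RNA and pre-ribosomes 42 fell and none rose, with a median of -0.43 and members between -0.95 and 0.01. Median levels against the control mean were -0.47, -0.41 and -0.41 in the knockdown arrays and between -0.06 and 0.03 in the controls. TCOF1, the treacle protein that recruits RNA polymerase I, read 9.81, 9.79 and 9.84 in the controls and 8.85, 8.89 and 8.83 after knockdown, a change of -0.95 (SE 0.05, adjusted p = 1.63e-07). RRS1, which carries 5S RNA into the large subunit, read 9.73, 9.64 and 9.74 against 8.69, 8.77 and 8.81, a change of -0.95 (SE 0.06). BYSL, a small-subunit assembly factor, fell by 0.82 and NOP16, a nucleolar protein, by 0.73. The 4 genes that did not pass included NPM1, the abundant nucleolar chaperone, at -0.11. The ribosomal proteins themselves did not follow: of 45 cytosolic ribosomal protein genes 1 rose and 4 fell, and their median change was 0.00. RPL32 fell by 0.50 and RPL14 by 0.31, but many such genes have processed pseudogenes that share their sequence, and 2 of the genes fell without the controls titled "new". The rise of RPLP2, 0.16, was lost without control array 1, control array 2, knockdown array 1, knockdown array 2 or knockdown array 3 (adjusted p of up to 0.122).

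Many ribosome biogenesis promoters carry the E-box CACGTG, which MYC and related factors can bind. On either strand it occurred in 1264 of 14228 promoters (8.88%), in 285 of the 2141 promoters of all genes that fell (13.3%) and in 171 of 1852 of those that rose (9.23%). In the ribosome biogenesis list it occurred in 16 of 34 promoters of fallen genes and in 0 of the 4 that did not pass. Stretches from UTP20, UTP4 and IMP4, all of them small-subunit processome genes, are shown with the E-box in capitals to place it relative to the start. These genes were chosen for their match after their values were seen, and fell by 0.54 (adjusted p = 7.83e-05), 0.34 (adjusted p = 0.00284) and 0.45 (adjusted p = 0.000268).
UTP20 (chr12:101280045-101280104, plus strand): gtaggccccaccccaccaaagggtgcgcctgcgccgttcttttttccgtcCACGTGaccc
UTP4 (chr16:69132589-69132648, plus strand): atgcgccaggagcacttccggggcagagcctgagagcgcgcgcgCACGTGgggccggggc
IMP4 (chr2:130342669-130342728, plus strand): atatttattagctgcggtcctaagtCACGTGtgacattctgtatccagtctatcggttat
The first base of the match lies 10, 16 and 203 bases before the start. The 4 promoters without a match belong to a class too small to set a share against. The longer lysosomal element CLEAR, the E-box flanked by GT before it and AC after it, was found in 82 promoters (0.58%).

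Amino acid supply genes fell together with ribosome assembly. Of 31 targets of ATF4, the transcription factor of amino acid shortage, and genes of serine and asparagine synthesis, 23 fell and 2 rose, with a median of -0.43. SLC7A11, the cystine importer, read 10.58, 10.44 and 10.40 in the controls and 8.85, 9.15 and 9.09 after knockdown, a change of -1.45 (SE 0.08, adjusted p = 1.33e-07). ASNS, asparagine synthetase, read 9.90, 9.80 and 9.97 against 8.98, 8.96 and 9.05, a change of -0.89 (SE 0.06, adjusted p = 4.44e-07). SLC6A9, a glycine transporter, fell by 1.14, PYCR1, the last enzyme of proline synthesis, by 1.03 and CHAC1, which degrades glutathione, by 0.99. ASNS was named after its values were seen. SLC38A2, an amino acid transporter of the same programme, changed by -0.01 and did not pass. CEBPB, a partner of ATF4, rose by 0.37 (adjusted p = 0.0011). The other rise, VLDLR at 0.27, was lost without control array 2 or knockdown array 2, with adjusted p of up to 0.0608.

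Cytosolic aminoacyl-tRNA synthetases, which load transfer RNAs, behaved alike: 14 of 19 fell and none rose, at a median of -0.29. WARS1 fell by 0.47, MARS1 by 0.46, AARS1 by 0.36 and IARS1 by 0.35, each with adjusted p at or under 0.000392. AARS1 read 11.59, 11.54 and 11.58 in the controls and 11.16, 11.23 and 11.24 after knockdown, with a narrow spread in both groups. The large multi-synthetase complex held both kinds: its members MARS1, IARS1 and LARS1 fell, LARS1 by 0.35, while RARS1, QARS1 and KARS1 changed by 0.07, 0.12 and -0.07 and did not pass.

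The amino acid response element of ATF4 and its partners was searched as TGATGNAA on either strand. It occurred in 361 of 14228 promoters (2.54%), in 43 of 2141 promoters of all fallen genes (2.01%) and in 26 of 1852 of risen ones (1.40%). In the ATF4 list it occurred in 5 of 25 promoters, all 5 among the 19 of fallen genes, and in the synthetase list in 6 of 16, all among the 11 of fallen genes. Stretches of ASNS and CHAC1 from the first list and AARS1 and IARS1 from the other are printed because they show the element in both, with the match in capitals.
ASNS (chr7:97872442-97872501, minus strand): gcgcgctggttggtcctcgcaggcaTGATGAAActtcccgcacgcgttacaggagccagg
CHAC1 (chr15:40953237-40953296, plus strand): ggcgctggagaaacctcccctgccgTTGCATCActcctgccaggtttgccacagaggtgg
AARS1 (chr16:70289659-70289718, minus strand): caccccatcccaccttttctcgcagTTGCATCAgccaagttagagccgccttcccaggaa
IARS1 (chr9:92293698-92293757, minus strand): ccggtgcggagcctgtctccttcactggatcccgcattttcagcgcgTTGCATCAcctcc
The match starts 68, 209, 187 and 13 bases before the start in this order. ASNS reads TGATGAAA, and the other 3 read TTGCATCA, which is the element on the opposite strand. No match was found in this window in 14 of 19 fallen members of the ATF4 list and in 5 of 11 fallen synthetases.

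**Figure D4:**
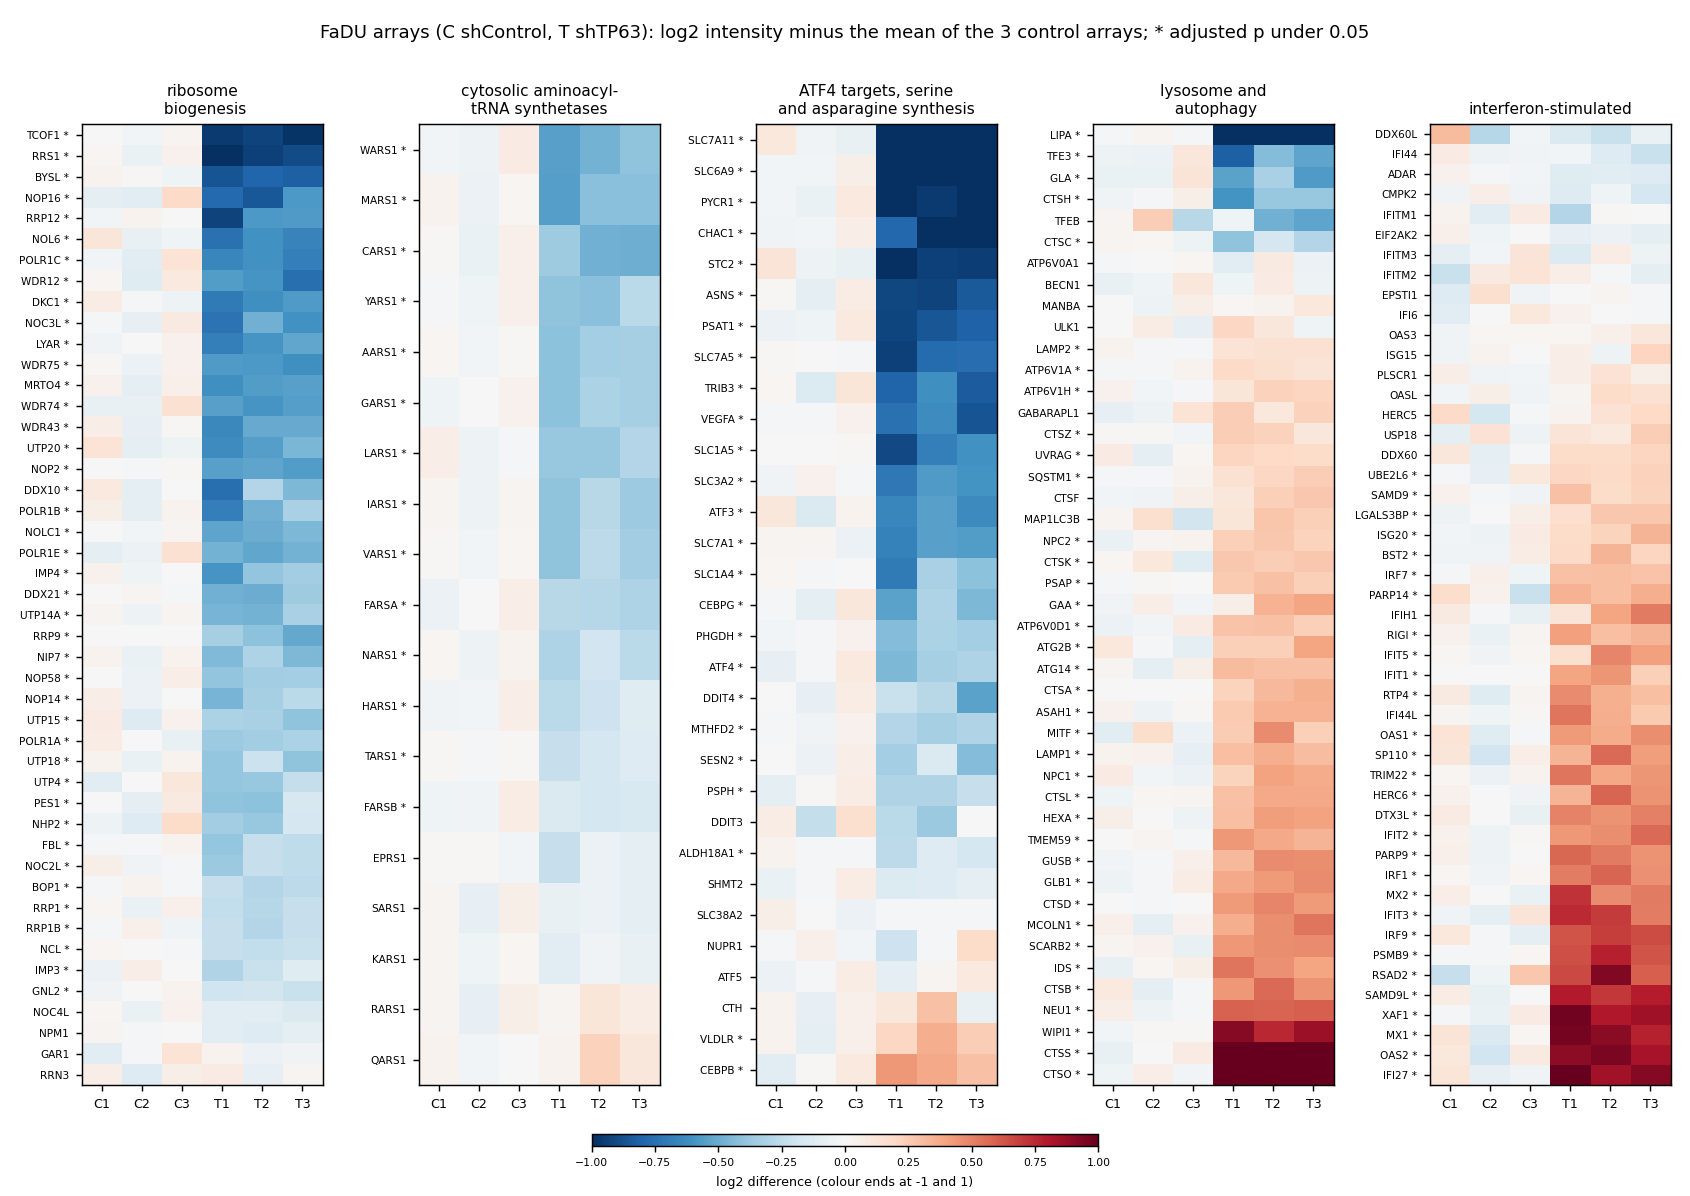
Log2 intensity of each measured member of 5 gene groups in the 6 FaDU arrays (C, shControl; T, shTP63) minus the mean of the 3 controls, with members sorted by change and an asterisk for an adjusted p under 0.05. Most ribosome biogenesis, tRNA synthetase and ATF4 genes are blue in the knockdown arrays, and most lysosomal and interferon-stimulated genes are red.

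Lysosomal genes rose broadly. Of 45 lysosome and autophagy genes 32 rose and 5 fell, with a median of 0.27. Median levels against the control mean were 0.25, 0.29 and 0.27 in the knockdown arrays and between -0.01 and 0.01 in the controls. CTSO, a cysteine cathepsin, read 6.24, 6.35 and 6.26 in the controls and 7.77, 7.90 and 7.69 after knockdown, a change of 1.5 (SE 0.14, adjusted p = 5.84e-06). CTSS, the cathepsin of antigen processing, read 6.77, 6.85 and 6.93 against 8.08, 8.03 and 7.92, a change of 1.16 (SE 0.09, adjusted p = 2.22e-06). WIPI1, which marks forming autophagosomes, rose by 0.84 and NEU1, the lysosomal sialidase, by 0.59. Some members fell: LIPA, the lysosomal acid lipase, read 9.61, 9.65 and 9.61 against 8.29, 8.51 and 8.35, a change of -1.24 (SE 0.07, adjusted p = 1.42e-07). GLA, alpha-galactosidase, fell by 0.47, CTSH by 0.45 and TFE3, a transcription factor of lysosomal genes, by 0.60. The proton pump subunit ATP6V0A1 changed by -0.03 and did not pass. The CLEAR element stood in 2 of the 33 promoters that could be read, those of GAA and MCOLN1, named after their values were seen. MCOLN1 rose by 0.45 (adjusted p = 0.000155), and the call of GAA, 0.27, was lost without control array 1, control array 3, knockdown array 2 or knockdown array 3 (adjusted p of up to 0.0914).

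Genes of lipid synthesis and of redox defence fell in part. Of 20 cholesterol synthesis genes 12 fell and 1 rose (median -0.22), and of 19 fatty acid genes 8 fell and 3 rose (median -0.14). DHCR7, whose enzyme makes cholesterol in the final step, fell by 0.42 (adjusted p = 0.000234), ACSS2, which makes acetyl-CoA from acetate, by 0.53, and the desaturase relative FADS3 by 0.97 (SE 0.05, adjusted p = 1.23e-07). FADS3 read 10.43, 10.54 and 10.44 in the controls and 9.49, 9.52 and 9.5 after knockdown. The count of cholesterol genes that fell was 6 with the FaDU arrays fitted alone and 6 without the controls titled "new". Of 32 NRF2-type detoxification genes 13 fell and 3 rose (median -0.19). GPX2, the epithelial glutathione peroxidase, read 9.34, 9.35 and 9.59 against 8.02, 8.08 and 7.79, a change of -1.46 (SE 0.11, adjusted p = 1.3e-06). CYP4F11 fell by 0.98 and malic enzyme ME1 by 0.70. AKR1C1 fell by 1.12 on its brighter probe set but by 0.20 on another, and the AKR1C genes are near copies. ABCC3, an export pump, rose by 0.56, while GSTP1 changed by 0.02 and did not pass.

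Among genes of energy metabolism, few of oxidative phosphorylation changed and more of glycolysis and of the hypoxia response. Of 40 oxidative phosphorylation genes 2 rose and 3 fell, below the share over all genes, with a median of 0.01, and quantile or cyclic loess scaling raised the count of rises to 6. Without knockdown array 1 the count of falls was 1. ATP5MC1, a ring subunit of ATP synthase, fell by 0.61 (SE 0.06, adjusted p = 1.74e-05). Of 21 glycolytic genes 6 fell and 2 rose, but 2 fell without control array 1 or knockdown array 3, and 1 without the controls titled "new". TPI1, triosephosphate isomerase, dominated with 12.18, 12.11 and 12.13 in the controls and 10.87, 10.90 and 10.82 after knockdown, a change of -1.27 (SE 0.05, adjusted p = 1.65e-08). SLC2A3, a glucose transporter, rose by 0.80, and GAPDH changed by -0.02. TPI1 is among the genes whose probe sets disagreed most. Of 17 hypoxia-inducible genes 7 rose and 4 fell. BNIP3 and BNIP3L, mitophagy receptors, rose by 0.58 and 0.52, whereas VEGFA, the vascular growth factor, fell by 0.74 (SE 0.06, adjusted p = 2.93e-06). Without knockdown array 3, or without the controls titled "new", 2 of the hypoxia genes fell.

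Chaperone genes changed by small amounts. Of 20 endoplasmic reticulum chaperone and unfolded protein response genes 2 rose and 3 fell, of which XBP1, the transcription factor of that response, fell by 0.47 (adjusted p = 6.34e-05) and the co-chaperone DNAJC3 rose by 0.49. Without control array 1 or knockdown array 1 there was 1 fall. Of 16 cytosolic heat shock genes 7 fell and none rose, led by BAG3, a co-chaperone, at -0.56 (SE 0.06, adjusted p = 1.37e-05), and HSF1, the heat shock factor, at -0.40. HSPA8, the constitutive chaperone, changed by -0.06 and did not pass.

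Replication and mitosis genes fell in part. Of 45 S phase genes 20 fell and 2 rose (median -0.17), and of 49 G2 and mitosis genes 18 fell and 2 rose (median -0.10). GINS3, of the replicative helicase, read 9.56, 9.51 and 9.55 in the controls and 8.67, 8.80 and 8.96 after knockdown, a change of -0.74 (SE 0.08, adjusted p = 2.99e-05). CCNE2, a cyclin of S phase entry, went against the list and read 8.62, 8.43 and 8.63 against 9.60, 9.59 and 9.70, a change of 1.07 (SE 0.06, adjusted p = 2.08e-07). FOXM1, the transcription factor of mitotic genes, fell by 0.84, CDC25B, a phosphatase of mitotic entry, by 1.10 and CDCA8, of the chromosomal passenger complex, by 1.2 (SE 0.11, adjusted p = 5.04e-06). ANLN and HMMR, cytokinesis and spindle proteins, rose by 0.39 and 0.41, and PLK1 changed by -0.02. With quantile or cyclic loess scaling 6 or 5 G2 and mitosis genes rose. The E2F letters TTTNGCGC stood in 351 of 14228 promoters (2.47%) and in 17 of 40 S phase promoters, 8 of 18 of fallen genes and 9 of 21 of those that did not pass. The letters TTTGAA of the mitotic CHR element stood in 1694 (11.9%) and in 28 of 42 mitotic promoters, 10 of 15 fallen and 16 of 25 not passing.

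Inhibitors of the cell cycle and genes of quiescent cells rose more often than they fell, at 11 against 4 of 32. CDKN1B, the inhibitor p27, read 9.93, 9.99 and 10.06 in the controls and 10.80, 10.68 and 10.81 after knockdown, a change of 0.77 (SE 0.06, adjusted p = 1.13e-06). SKP2, the ubiquitin ligase subunit that marks p27 for destruction and a member of no list, read 10.51, 10.56 and 10.58 against 9.32, 9.32 and 9.28, a change of -1.25 (SE 0.05, adjusted p = 1.23e-08). CDKN1A, the inhibitor p21, fell by 0.69 (SE 0.08, adjusted p = 6.34e-05). YPEL3 and YPEL2, small proteins tied to growth arrest, rose by 1.28 and 0.85, and SESN3, a stress-induced sestrin, by 0.78. CCND2, a cyclin, fell by 0.32, a call lost without the controls titled "new" (adjusted p = 0.0857), and the antiproliferative gene TOB1 changed by 0.08.

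Genes activated by p53 family proteins divided, with 8 of 30 risen and 11 fallen. SFN, the 14-3-3 sigma of epithelial cells, read 11.88, 11.91 and 12.07 in the controls and 10.89, 10.92 and 10.85 after knockdown, a change of -1.07 (SE 0.06, adjusted p = 1.49e-07). GADD45A, a growth arrest gene, read 8.90, 8.81 and 8.98 against 7.76, 7.73 and 7.64, a change of -1.18 (SE 0.06). TP53INP1, a stress-induced autophagy protein, rose by 1.16 (SE 0.17, adjusted p = 0.000265), and the kinase PLK2 by 0.73. CCNG1 changed by 0.04 and did not pass. Among 26 BCL2 family and apoptosis inhibitor genes 8 rose and 2 fell. BCL2L11, the death promoter BIM, rose by 0.39, the survival gene BCL2L1 by 0.35 and APAF1, of the apoptosome, by 0.40, whereas PMAIP1, the death promoter NOXA, fell by 0.53. The count of rises in that family was 4 with the FaDU arrays fitted alone and 5 without the controls titled "new".

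Signalling pathways between cells changed gene by gene. In the Notch pathway 9 of 25 genes fell and 3 rose. The ligand JAG1 read 8.88, 9.04 and 8.84 in the controls and 7.38, 7.66 and 7.39 after knockdown, a change of -1.44 (SE 0.08, adjusted p = 1.23e-07). The receptor NOTCH2 read 10.59, 10.54 and 10.32 against 9.60, 9.71 and 9.67, a change of -0.82 (SE 0.07), and the ligand DLL1 fell by 0.63. MAML2, a co-activator of Notch, rose by 0.87 and RBPJ, its DNA-binding partner, by 0.51. In the TGF-beta and BMP pathways 9 of 39 genes rose and 2 fell. The ligand TGFB2 read 9.40, 9.31 and 9.33 against 10.49, 10.66 and 10.60, a change of 1.24 (SE 0.07, adjusted p = 1.08e-07), its receptor TGFBR2 rose by 0.75 and the BMP receptor BMPR2 by 0.61. SMAD4, the shared mediator that FaDU is known to lack, read 4.03, 4.63 and 4.36 against 4.79, 4.51 and 4.45, below the median level of 7.23, and did not pass. In the Wnt pathway 8 of 39 rose and 7 fell, among them the co-receptor LRP6, up by 0.45, and the ligand WNT7A, down by 0.61.

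Genes of the Hippo pathway and its partners, the subject of the study, also divided, with 10 of 30 risen and 7 fallen. The angiomotins, scaffolds that hold YAP outside the nucleus, moved apart. AMOT read 5.54, 5.75 and 5.43 in the controls and 6.37, 6.32 and 6.38 after knockdown, a change of 0.78 (SE 0.09, adjusted p = 4.98e-05). AMOTL1 read 7.97, 7.93 and 7.81 against 7.07, 6.80 and 6.87, a change of -0.99 (SE 0.07, adjusted p = 1.29e-06). AMOTL2 rose by 0.49. YAP1, the co-activator that the pathway restrains, fell by 0.47 (SE 0.05, adjusted p = 1.33e-05), and FAT2, a giant cadherin, by 1.93, the largest fall of the list. FRMD6, an upstream Hippo regulator, fell by 1.19 (SE 0.07, adjusted p = 2.62e-07), and VGLL1, which competes with YAP for TEAD factors, rose by 1.04. WWC1 rose by 0.53, and MOB1A, a kinase adaptor, changed by 0.00. Of 23 YAP/TAZ target genes 13 rose and 2 fell, at a median of 0.23. The largest rises there besides TGFB2 were CCDC80, a matrix protein, at 1.13 and IGFBP3, which binds insulin-like growth factors, at 0.80. The falls were GADD45A and FJX1, a Golgi kinase relative, at -1.33. With the FaDU arrays fitted alone 6 Hippo genes rose.

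Mesenchymal genes did not move as a group: 4 of 30 rose and 3 fell. FN1, fibronectin, rose by 0.34 and LOXL2, a collagen cross-linker, by 0.26, while SNAI2, the EMT factor expressed in basal cells, fell by 1.43 (SE 0.06, adjusted p = 1.89e-08), CALD1, an actin-binding protein, by 0.59 and TNC, tenascin, by 0.57. SNAI2 read 10.69, 10.79 and 10.78 in the controls and 9.43, 9.32 and 9.23 after knockdown. CDH2, N-cadherin, changed by -0.22 and did not pass, and with the FaDU arrays fitted alone 1 gene of the list rose and LOXL2 did not pass (adjusted p = 0.0511). Guidance molecules were even, with 6 of 32 semaphorins, plexins and ephrins risen and 6 fallen: SEMA3C fell by 0.77 and its receptor family member PLXNA2 by 0.96, while PLXNB2 rose by 0.44 and the ligand EFNA1 by 0.37. Of 44 AP-1, SOX, KLF and ETS factors 11 fell and 6 rose. KLF7 fell by 1.11, KLF11 by 0.60 and ATF3 by 0.61, while KLF4, a factor of differentiating epithelium, rose by 0.36 and ELF3, an epithelial ETS factor, by 0.50. The ELF3 call was lost without control array 1 (adjusted p = 0.0566), and 7 of the factors fell with the FaDU arrays fitted alone.

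Several of the largest changes lay outside all lists. Of 156 genes changed 2-fold or more 93 were on no list. The lists hold only 1251 of the 18404 genes tested, so most genes of any kind lie outside them. SLC46A3, a lysosomal membrane transporter, read 5.04, 5.04 and 5.38 in the controls and 7.30, 7.25 and 7.26 after knockdown, a change of 2.12 (SE 0.09, adjusted p = 1.65e-08). ENPP5, a membrane pyrophosphatase relative, read 8.80, 8.48 and 8.82 against 10.55, 10.54 and 10.52, a change of 1.84 (SE 0.18). CPEB4, which binds messenger RNA tails, rose by 1.61, FUCA1, the lysosomal fucosidase, by 1.54 and CRISP3, a secreted cysteine-rich protein, by 1.41. SATB1, a chromatin organiser, rose by 1.28, PXDN, a matrix peroxidase, by 1.36 and TGM2, tissue transglutaminase, by 1.22. TYRP1, an enzyme of melanin synthesis, rose by 1.21 and ACP3, the prostatic acid phosphatase, by 1.18. Every knockdown array of these genes lay above every control.

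Among falls outside the lists, DPH2, an enzyme of diphthamide synthesis, had the lowest adjusted p of the genes named here. It read 8.84, 8.81 and 8.86 in the controls and 7.01, 7.04 and 7.09 after knockdown, a change of -1.79 (SE 0.05, adjusted p = 3.86e-09). AHNAK, a giant membrane scaffold, read 10.80, 10.67 and 10.46 against 9.06, 8.79 and 8.66, a change of -1.81 (SE 0.10, adjusted p = 1.42e-07). MYBL2, the B-Myb factor of dividing cells, read 9.93, 10.06 and 10.05 against 8.52, 8.43 and 8.67, a change of -1.47 (SE 0.06). All 3 genes separated the groups by more than 1 log2 unit in every array. TMEM109 and C11orf24, membrane proteins, fell by 1.53 and 1.61. VSNL1, a neuronal calcium sensor, fell by 1.59 and LPAR3, a receptor of lysophosphatidic acid, by 1.44. PRKCH, a protein kinase C of stratified epithelium, fell by 1.39, SLC1A3, a glutamate transporter, by 1.33, FMNL2, a formin, by 1.31 and TNS4, a focal adhesion tensin, by 1.30. The nuclease relative ERI3 fell by 1.28 and PPP4R4, a phosphatase subunit, by 1.26.

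The response of FaDU was set against that of JHU-029 by the difference between the effects in the 2 lines, which 2433 of 18404 genes (13.2%) passed. The genes set out here were mostly picked for large changes in FaDU, which favours a difference between the lines, so their values are given as a description without a test. MGAT4A changed by 2.47 in FaDU and 0.03 in JHU-029, and C3 by 1.88 and 0.12. IL1A changed by -2.69 in FaDU and -0.49 in JHU-029, and NRG1 by -2.24 and -0.59. Among genes of the lists, the ribosome biogenesis gene TCOF1 changed by -0.95 in FaDU and -0.20 in JHU-029, and the lysosomal gene CTSO by 1.5 and 0.23. For the interferon-stimulated gene OAS2 the changes were 0.89 and -0.17, and for the ATF4 target SLC7A11 -1.45 and -0.29. A further 6 genes were named whatever the size of their change: basal keratins, genes of the study's question and SMAD4. Of these, KRT5, KRT14 and YAP1 passed the test of the difference, at -1.30, -0.38 and -0.24 (adjusted p = 1.9e-06, 0.0295 and 0.0358). ACTL6A and the Hippo gene WWC1 had differences of -0.06 and 0.21 that did not pass (adjusted p = 0.716 and 0.159). SMAD4 had one of 0.31 that did not pass either (adjusted p = 0.34). Within the lines, WWC1 rose by 0.53 in FaDU and by 0.32 in JHU-029, while ACTL6A changed by -0.06 and 0.00.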

How the data were processed

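RNA of 12 samples was read on Affymetrix Human Gene ST arrays. The deposited values are linear probe set intensities, made by the authors with robust multi-array averaging (RMA) in R 2.15.1, per the submitters' processing notes. The sources used here do not give the RMA implementation, probe set definition or genome build. The number of arrays limits the precision.

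Of 32321 probe sets, 19158 had 1 gene symbol in the platform annotation, 1388 had several and 11775 were not listed. Each of 18404 symbols was read from its probe set with the highest mean over the 12 arrays. Log2 values were fitted with limma 3.58.1 in R 4.3.3, as a model of 4 groups over 12 arrays with empirical Bayes variances, and p-values were adjusted over all 18404 genes by Benjamini-Hochberg, with a threshold of 0.05. The fitting code was tested on simulated data.

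The arrays and the 52 gene lists were chosen with earlier results of these data known. Genes named are the 25 largest rises and falls that passed, did not overlap between groups and reached the median level. Named too are, per list, up to 4 members each way with the largest change and the highest-level member that did not pass, and every member of lists with at most 20 measured. The rule adds KRT5, KRT14, ACTL6A, WWC1, YAP1 and SMAD4, the 15 largest rises and falls on no list, and the 10 called genes whose probe sets disagreed most. Alternatives were other scalings, filters, probe set rules, variance models, sets of arrays and a replicate block.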

Additional observations from a re-analysis of the deposited data

Results flagged for a closer look

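The effect in FaDU minus that in JHU-029 stood out for 10 genes that were picked as the largest rises and falls in FaDU. This choice favours a difference between the lines, so the values are a description. They were 2.44 for MGAT4A, 2.18 for CP, 2.17 for SLC46A3, 1.75 for C3 and 1.65 for SELENOP, all of which rose in FaDU. They were -2.32 for the serpin SERPINB13, -2.20 for IL1A, -2.02 for the cadherin FAT2, -1.83 for MMP10 and -1.65 for NRG1, all of which fell in FaDU. Of 6 genes not picked for the size of their change, 3 passed the limma test of the difference, which 13.2% of all genes passed: KRT5 at -1.30, KRT14 at -0.38 and YAP1 at -0.24.

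Probe sets without a single gene symbol also changed in FaDU. Of 13163 such probe sets 1034 (7.86%) passed an adjusted p of 0.05 over all probe sets, 372 higher and 662 lower, against 26.6% of genes with a single symbol.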

How the results depend on the processing

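Under the other scalings, filters, probe set rules and variance models the number of genes called stayed between 3556 (the 6 FaDU arrays fitted alone) and 5328 (a trend in the variance prior), against 4900. Leaving out 1 FaDU array in turn gave 4321 to 4727 calls, and leaving out both controls titled "new" gave 3568, of which 3166 were shared with the 4900. Between 149 and 169 genes passed with a 2-fold change. Calls shared with another setting always had the same direction. A replicate block with the 6 FaDU arrays fitted alone gave 2732 calls, 1167 higher and 1565 lower, of which 2697 were shared. A fixed replicate block over 12 arrays gave 4623. Whether equal replicate numbers pair the samples is not said in the labels, and with 3 arrays per group correlations cannot decide it. Deviations of same-numbered FaDU arrays from their group means correlated at -0.0811, -0.0670 and 0.0134. Those of differently numbered FaDU arrays correlated at -0.0521 to 0.1118, highest for control array 2 with knockdown array 1. Tested against a 1.2-fold minimum, 1098 genes passed, 400 higher and 698 lower, so 36.4% of calls were higher against 46.8%, and 379 genes passed for the difference between the lines. Changes in DDR2 and PLCXD1, which fell on their brighter probe sets by 0.43 and 0.19, were 0.12 and 0.26 in the mean of all their probe sets and did not pass. Of 754 other probe sets of genes with several, 469 had the same sign as the one used, and of 207 that belonged to called genes, 171 had. Calls were fewer among dim genes: 6.72% of the dimmest of 4 equal classes of genes passed, against 43.9% of the brightest.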
